A study of Mus musculus with 12 samples.

Results

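The cytoplasmic ribosomal protein genes code for the proteins of the ribosome outside mitochondria, those of the large subunit (Rpl) and of the small subunit (Rps). They were taken here as the genes whose symbol starts with Rpl or Rps followed by a digit, leaving out pseudogene symbols that end in -ps and the Rps6k kinases. The table held 82 of them among 31053 genes, 49 Rpl and 33 Rps, while another 19 symbols with the same start were left out by the rule. The rule also took in Rps19bp1, which codes for a protein that binds Rps19 and is not part of the ribosome, and Rpl7l1, a relative of Rpl7. It missed 7 genes whose products belong to the ribosome under other names, such as Rplp0, Rpsa and Rack1, and these were followed as a separate list.

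The data were single-cell transcriptomes of cells from the striatum of wild-type mice, enriched for astrocytes with magnetic beads against the surface marker ACSA2 and sequenced from the 3′ end with unique molecular identifiers (UMIs), so that each count stood for 1 captured RNA molecule. There were 2 libraries of postnatal striatum and 2 of striatum at 3 months (3m), each prepared from several pooled animals, so that a library was 1 pool and not 1 mouse. No group carried a mutation, a transgene or a treatment. The labels gave the strain as mixed and the methods gave C57BL/6Jax, so the strain is not settled here. The sample titles gave P7 for postnatal replicate 1 and P3 for postnatal replicate 2, the age field gave them the other way round, the study's text speaks of P3 alone, and both were therefore treated as 1 postnatal group.

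A ribosome holds 1 copy of nearly every ribosomal protein, and cells make these proteins in step with ribosomal RNA. Most of their messenger RNAs begin with a cytosine followed by a run of pyrimidines, the 5′ terminal oligopyrimidine (TOP) tract, which lets mTOR signalling and the LARP1 protein control their translation and stability. Growing and dividing cells make many ribosomes, and Myc and Mycn are known activators of these genes. Astroglia in the first days after birth still divide in the brain parenchyma, and most have left the cell cycle in the adult.

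After filtering, postnatal replicates 1 and 2 held 555 and 724 cells and 3m replicates 1 and 2 held 1120 and 764, with median UMIs per cell of 9547, 11640, 7738 and 9808. Cells were put into classes by fixed marker genes, and classes are written as marker-named groups ("astroglia-like"). Cells with at least 3 UMIs from 10 cell cycle genes were kept apart as cycling cells. Postnatal replicate 2 and 3m replicate 2 shared 95 cell barcodes, other pairs of libraries shared at most 2, and the copies with fewer UMIs included 46 of the filtered cells of 3m replicate 2. Without these copies 3m replicate 2 kept 298 of 303 astroglia-like, 293 of 296 oligodendrocyte-like, 30 of 36 endothelial-like and 49 of 50 mural-like cells, and their shares of UMIs from the members were 2.83%, 5.12%, 10.5% and 6.15%. The main gene-wise fits kept the copies, and those with age were also run without them. The astroglia-like sums held 10829 and 8797 CPM of the fixed astroglia markers in the postnatal libraries and 22333 and 23203 CPM at 3m.

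The first comparison was of age within non-cycling astroglia-like cells. In the postnatal libraries 7.25% and 9.74% of all astroglia-like UMIs came from the 82 genes, over 361 and 488 cells. At 3m the shares were 3.29% and 2.85%, over 315 and 303 cells. Both 3m libraries lay below both postnatal ones, at 3.07% ± 0.310 (SD, n = 2) against 8.50% ± 1.77 (SD, n = 2), a difference of -5.43 percentage points. An exact two-sided permutation test gave p = 0.333, the smallest value that 2 against 2 libraries allow. The 95% Clopper-Pearson interval of each share was narrow, for instance 7.22% to 7.27% in postnatal replicate 1, since it covered counting error only and not the spread between pools. The medians over single cells were 6.48%, 9.35%, 2.97% and 2.64% in the same order of libraries. Because a share is relative to all RNA captured, fewer ribosomal protein RNAs and more of other RNAs cannot be told apart.

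Several other measures moved with age in the same sums. Malat1, a nuclear noncoding RNA, stood at 72244 and 50980 CPM in postnatal astroglia-like cells and at 132730 and 132005 CPM at 3m, and the median mitochondrial share was 2.69% and 1.94% against 4.64% and 5.82%. The fixed oligodendrocyte markers, which belong to another class of cell in the same gate, summed to 278 and 145 CPM against 1058 and 520 CPM. Without Malat1 and the mitochondrial genes the age difference was -5.54 percentage points, without every cell that held an oligodendrocyte marker UMI it was -6.01, and without the smaller copies of shared barcodes it was -5.43. Median depth was 8968 and 11272 UMIs in the postnatal astroglia-like cells and 5980 and 8249 at 3m. In cells of 8000 to 16000 UMIs the medians over single cells were 6.20% and 9.20% against 2.76% and 2.49%, and in the summed cells of 4000 to 16000 UMIs the shares were 6.79% and 9.30% against 3.26% and 2.54%. The median depth of the latter cells was 10401 and 10744 UMIs postnatally and 7178 and 9311 at 3m, and the part of depth in the difference was not tested.

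**Figure D1:**
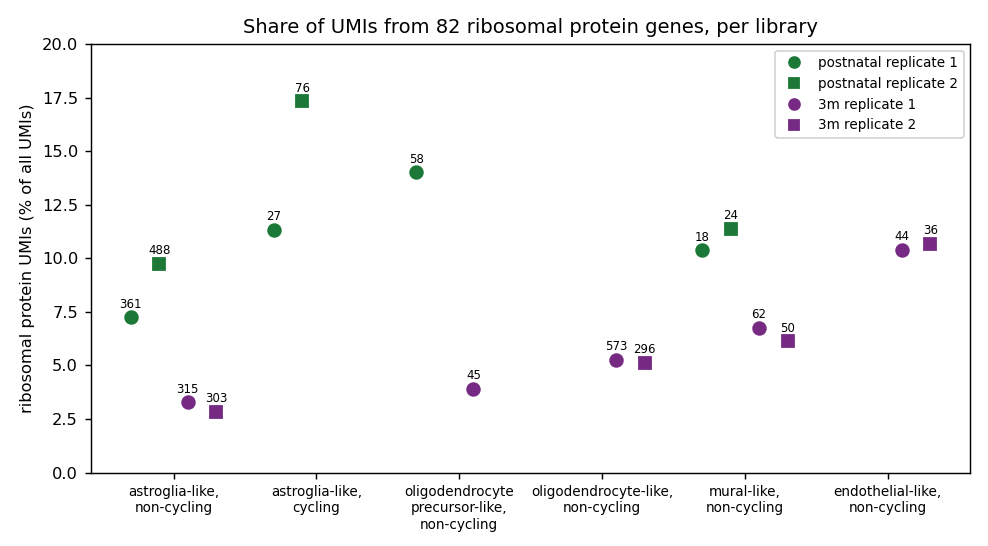
Share of all UMIs that came from the 82 ribosomal protein genes (vertical axis, %) in each marker-gated class and library, 1 point per library with the number of cells beside it. Astroglia-like cells had 7.25% and 9.74% in the postnatal libraries and 3.29% and 2.85% at 3m, and each class drawn at both ages was lower at 3m.

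Gene by gene, the change with age went the same way throughout the family. Of the 82 genes, 79 passed the filter on low counts in astroglia-like cells, and 59 of them were called lower at 3m (edgeR quasi-likelihood test, Benjamini-Hochberg adjusted p at most 0.05 and a change of at least 1 on the log2 scale) while 0 were called higher. DESeq2 also called 0 higher. Over all 11465 genes tested 11.3% were called lower. At the adjusted p alone 75 of the 79 were lower, against 19.7% of all genes. The median log2 change of the members was -1.18, with a range from -1.80 to -0.43, and that of all genes was -0.00498. For all 79 tested members both 3m values lay below both postnatal values, as they did for 49.5% of all genes. The 2 subunits gave like counts, with 34 of 46 tested Rpl genes called lower at a median of -1.13 and 25 of 33 Rps genes at a median of -1.27. The number of calls, and of members lower at the adjusted p alone, depended on single libraries, as did the calls over all genes. Without 3m replicate 2 or 1 the median of the members was -1.08 or -1.28. Without postnatal replicate 2 or 1 it was -0.98 or -1.37. The sign stayed negative for all 79 genes in each of these fits. The 12 genes called in every one of these fits included Rpl5, Rpl10a, Rpl23a, Rpl29, Rpl32, Rpl36a, Rps2, Rps3a1, Rps4x, Rps12 and Rps20. Without any scaling factor 74 members were called lower, but the median of all genes then also moved, to -0.283, and the calls over all genes turned from 1623 higher and 1299 lower to 1158 higher and 2082 lower.

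Among small subunit genes the lowest was Rps12, whose product lies in the head of the subunit and which stood at 960.5 and 1818 CPM in postnatal replicates 1 and 2 and at 321 and 333 CPM at 3m (log2 change -1.80, SE 0.28, edgeR adjusted p = 0.00178). Both 3m values lay far below the lower postnatal one, although the postnatal replicates differed from each other more than the 3m replicates did. Rps2, a protein close to the path of the messenger RNA, had closer replicates, at 1105 and 1223 CPM against 318 and 263 CPM (-1.72, SE 0.19, edgeR adjusted p = 0.000427). Rps20 had 1352 and 1719 CPM against 449.7 and 338.5 CPM (-1.68, SE 0.22, edgeR adjusted p = 0.000869). In Rps2 and Rps20 the gap between the ages was larger than that between replicates.

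Among large subunit genes Rpl32 had 1017 and 1496 CPM in the postnatal libraries and 349 and 339 CPM at 3m (-1.59, SE 0.22, edgeR adjusted p = 0.000998). Rpl5, which binds the 5S ribosomal RNA and takes part in the p53 response to faulty ribosome assembly, changed by -1.57 (SE 0.25, edgeR adjusted p = 0.00203). Rpl23a, at the mouth of the tunnel through which the new protein leaves, changed by -1.52 (SE 0.23, edgeR adjusted p = 0.00166). Rpl41, the gene for the shortest ribosomal protein, gave the most UMIs of the family in both postnatal libraries, 3179 and 3590 CPM, and fell to 1265 and 977 CPM at 3m (-1.31, SE 0.23, edgeR adjusted p = 0.00270). At 3m the gene with the most UMIs was Rps29, which had 2344 and 3019 CPM postnatally and 1331 and 1100 CPM at 3m (-0.86, SE 0.22, edgeR adjusted p = 0.0156). Its groups did not overlap, but its change stayed under the size needed for a call.

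The smallest changes were found in members of several kinds. Rps19bp1, which is not a ribosomal protein, had 61.7 and 68.9 CPM against 41.9 and 38.1 CPM (-0.43, SE 0.16, edgeR adjusted p = 0.0653). Rpl21 had 1119 and 1462 CPM against 746 and 612 CPM (-0.64, SE 0.21, edgeR adjusted p = 0.0382). Rpl13a, known also for a role in the silencing of inflammatory messages in myeloid cells, had postnatal replicates that were 110.3 and 221.8 CPM and 3m replicates of 72.1 and 102.1 CPM (-0.65, SE 0.30, edgeR adjusted p = 0.118). The gap between its groups was smaller than the gap between its postnatal replicates. Rps27rt, with 44.1 and 43.9 CPM against 27.6 and 18.1 CPM, also missed the threshold (edgeR adjusted p = 0.0524), as did Rpl35. Rps27rt resembles Rps27, with a stretch of 38 bases shared between their whole RefSeq promoter windows, which are longer than the stretches printed below. Whether the counted reads, which come from the 3′ end, could be told apart between these 2 genes was not tested, so both values are given with that limit. Members in the middle of the family were Rps15 and Rpl11, both at -1.18.

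**Figure D2:**
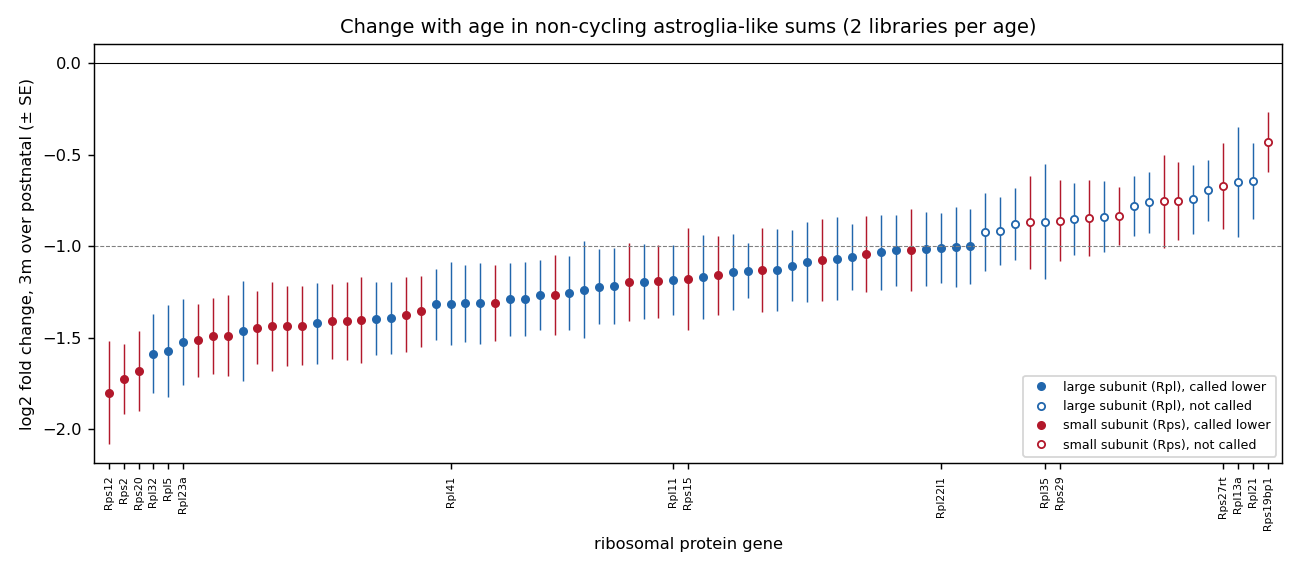
Log2 change from postnatal to 3m in non-cycling astroglia-like cells (vertical axis) for the 79 tested ribosomal protein genes in order of size, points with 1 SE from the edgeR fit and with the names of some of the genes described in the text. All points lie below 0, from -1.80 for Rps12 to -0.43 for Rps19bp1.

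The starts of these genes are shown because the TOP tract is the feature by which their messenger RNAs are known, and because it can be set beside the sizes of the change. RefSeq promoter windows of build GRCm38.p6 matched 63 of the 82 members. The 30 bases from 10 before to 20 after each annotated start were searched for a run of at least 7 pyrimidines (C or T) on the gene's strand, which is printed in capitals in the members that held one. These are genes with a large or a small age change, the starts of Rps27 and Rps27rt, and genes named in the comparisons of classes.
Rps12, chr10:23787190-23787219, minus strand: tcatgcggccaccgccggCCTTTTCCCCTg
Rps2, chr17:24720053-24720082, plus strand: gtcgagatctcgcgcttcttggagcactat
Rpl5, chr5:107900518-107900547, plus strand: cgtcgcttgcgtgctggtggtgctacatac
Rpl13a, chr7:45128726-45128755, minus strand: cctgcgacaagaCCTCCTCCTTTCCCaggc
Rpl31, chr1:39367841-39367870, plus strand: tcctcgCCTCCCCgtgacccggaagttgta
Rps27, chr3:90213629-90213658, minus strand: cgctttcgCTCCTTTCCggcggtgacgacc
Rps27rt, chr9:114982720-114982749, minus strand: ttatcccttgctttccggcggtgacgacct
Rps19bp1, chr15:80264287-80264316, minus strand: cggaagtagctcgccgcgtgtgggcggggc
Rps6, chr4:86857348-86857377, minus strand: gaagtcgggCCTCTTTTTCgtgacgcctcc
Rpl38, chr11:114668570-114668599, plus strand: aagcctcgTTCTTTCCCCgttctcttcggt

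At least 1 annotated start had a run of this kind in 31 of the 63 members, 49.2%, and in 20.5% of all 27025 genes. Since 10 of these members had several annotated starts, and each start was a further chance, the windows were also counted singly, and 32 of 75 held a run, 42.7%, against 17.9% of all windows. On the other strand, where it reads as a run of A or G, it was present in 4 of the 63 members, 6.35%, and in 23.4% of all genes. The shorter motifs CTTTC or CTTCC, which overlap such runs, were found in 25 of the 63 members, 39.7%, against 11.5% of all genes, and on the other strand in 19.0% against 12.4%. The nuclear genes for mitochondrial ribosomal proteins held a run of 7 in 13.0% of cases. The 30 tested members with a run had a median log2 change with age of -1.07 and the 30 without one of -1.20, a difference that was not tested. A run is found only where the annotated start lies near it, so a window without one is not read as the lack of a TOP tract. Among other genes the medians were 0.02 with a run and -0.01 without. Rps12 and Rpl13a, near the opposite ends of the family, both held a long run, whereas Rps2 and Rpl5 held none in the window.

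The members could also be compared with each other after scaling to their own sum, which removes what they share. On that scale 0 of the 79 changed enough with age to be called (edgeR), 1 passed at an unadjusted p under 0.05, and the log2 changes ran from -0.57 to 0.75. The 1 that passed was Rps19bp1, which was higher relative to the family by 0.75 (SE 0.31, edgeR adjusted p = 0.0252). Of all 11465 genes 7931 were higher at the adjusted p on that scale, so this pass is not read as a result about the gene. The make-up of the family moved little, with the large subunit giving 56.3% and 55.5% of member UMIs in postnatal astroglia-like cells and 57.5% and 57.8% at 3m.

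Some members come in pairs of close relatives, of which 1 is often more restricted in use. Rpl22l1, the relative of Rpl22, was called lower at 3m (405 and 569 CPM against 205 and 194 CPM, log2 change -1.01, SE 0.19, edgeR adjusted p = 0.00412), and so was Rpl22 at -1.22. For each 100 Rpl22 UMIs there were 75.6 and 84.9 Rpl22l1 UMIs postnatally and 83.01 and 107 at 3m, so the groups differed less than the 3m replicates did. Rpl36al stood at 61.8 and 41.7 UMIs per 100 of Rpl36a postnatally and at 73.3 and 81.5 at 3m. Rpl7l1 had 12.1 and 8.93 UMIs per 100 of Rpl7 against 15.1 and 15.4. In these last 2 pairs the 3m ratios lay above both postnatal ratios, and the partner was called lower with age (-1.39 for Rpl36a, -1.26 for Rpl7) while the relative was not (-0.78 and -0.70). The difference between partners was not tested.

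Other genes of the ribosome and of translation were read in the same fit from fixed lists. Of the 7 ribosomal genes outside the symbol rule, 6 were called lower at 3m, led by Rplp0 of the ribosomal stalk at -2.08, Rpsa at -1.62 and Rack1, a signalling scaffold on the small subunit, at -1.47. Of 14 translation factors and other genes with TOP messages, 8 were called lower, among them Pabpc1, the poly(A) binding protein, at -1.45, Tpt1 at -1.44 and Eef1a1, the main elongation factor, at -1.41. Of 21 tested ribosome assembly factors 2 were called lower, Gar1 at -1.17 and Ncl, nucleolin, at -1.02, a share near the 11.3% of all genes called lower, and the median of that list was -0.57. Among 15 tested regulators of ribosome synthesis, with a median of 0.08, Mycn at -2.72 and Ddit4, an inhibitor of mTOR complex 1, at -1.31 were called lower and Eif4ebp1, a repressor of translation, was called higher at 1.04, beside 1299 lower and 1623 higher calls among all 11465 genes, so that neither count is read as a result about the list. DESeq2 called 0 regulators higher and 1 lower. Of the 77 tested mitochondrial ribosomal protein genes, 0 were called in either direction by edgeR or DESeq2, with 5 higher and 10 lower at an unadjusted p under 0.05, and their median was 0.03. Their values ran from -0.92 to 0.60 and so overlapped the -1.80 to -0.43 of the cytoplasmic members, and the difference between the lists was not tested.

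**Figure D3:**
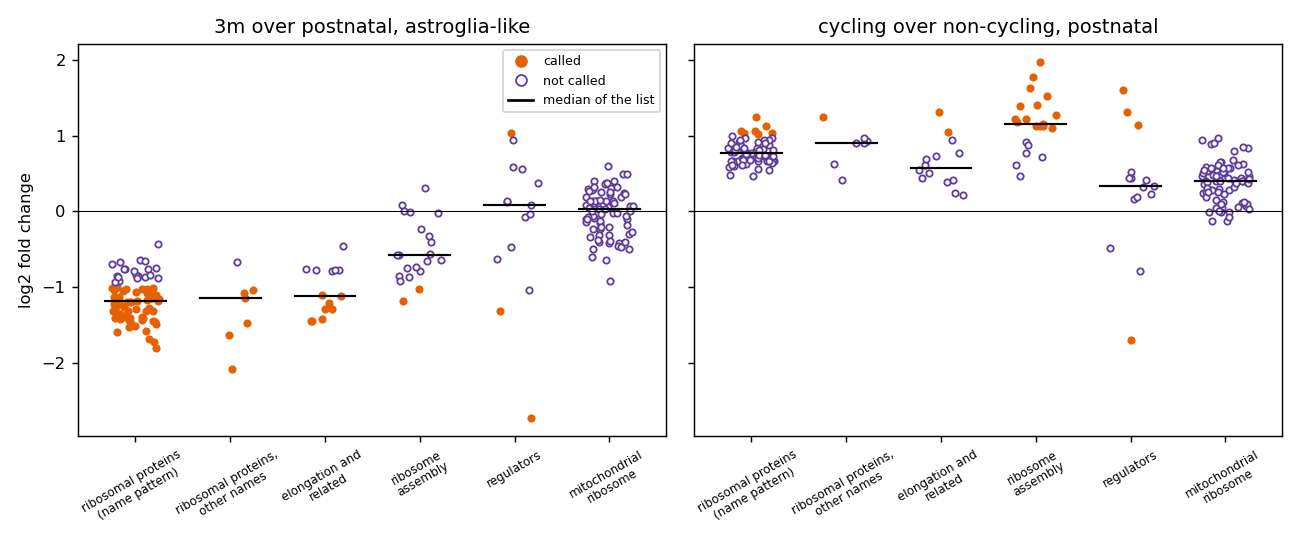
Log2 changes of the genes in 6 lists (vertical axis), 1 point per gene with the list median as a bar, for 3m against postnatal astroglia-like cells and for cycling against non-cycling postnatal astroglia-like cells. With age the median is -1.18 for the ribosomal protein genes and 0.03 for the mitochondrial ones, and in cycling cells it is 0.78 for the former and 1.15 for the assembly factors.

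Over all filtered cells, with every class pooled, 79 of the 80 tested members had a log2 change below 0. The other was Rpl3l, at 0.21 (SE 0.56, edgeR adjusted p = 0.787). The share of UMIs was 11.4% and 14.1% in the postnatal libraries and 5.31% and 4.86% at 3m. Of 80 tested members 55 were called lower, against 13.3% of all genes tested, with a median log2 change of -1.12. The number of calls again depended on single libraries. Without 3m replicate 2 or 1 the median was -1.09 or -1.13, and without postnatal replicate 2 or 1 it was -0.97 or -1.27. Rps2 and Rpl10a were lowest, both at -1.79. In this pool the libraries also differed in the classes they held, so that oligodendrocyte-like cells, for instance, numbered 573 and 296 at 3m and were too few to sum postnatally.

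The second comparison was between classes within the 3m libraries, with the library as a block. Relative to the 3.29% and 2.85% of astroglia-like cells, endothelial-like cells gave 10.4% and 10.7% of their UMIs to the members (44 and 36 cells), mural-like cells, the pericytes and smooth muscle of the vessel wall, gave 6.77% and 6.13% (62 and 50 cells), and oligodendrocyte-like cells gave 5.27% and 5.12%. All 3 classes lay above astroglia-like cells in both libraries, and the order endothelial, mural, oligodendrocyte and astroglia was the same in both. With 2 libraries no exact test of a difference between neighbours in this order could pass the threshold. The astroglia markers, a sign of RNA from astroglia in the other classes, summed to 563 and 419 CPM in oligodendrocyte-like, 730 and 520 CPM in endothelial-like and 4241 and 4514 CPM in mural-like cells. Malat1 stood at 73964 and 64586 CPM in oligodendrocyte-like, 35514 and 25402 CPM in endothelial-like and 70573 and 58484 CPM in mural-like cells, all below the 132730 and 132005 CPM of astroglia-like cells. The part of either in these differences was not tested. Microglia-like cells did not agree between libraries, at 13.8% from 24 cells and 7.71% from 7.

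In oligodendrocyte-like cells, the myelin-forming glia, 9 of 80 tested members were called higher than in astroglia-like cells, below the 16.9% of all genes called higher. At the adjusted p alone 72 were higher, against 30.6% of all genes, because most differences were under 1 on the log2 scale, with a median of 0.67. Rps6, the small subunit protein that S6 kinases phosphorylate, led with 1.40 (SE 0.13, edgeR adjusted p = 1.66e-13), followed by Rps3 at 1.29 and Rps27a, which is made as a fusion with ubiquitin, at 1.28. Rpl10a and Rpl22l1 were at -0.15 and -0.14. After scaling to the family sum 7 members were higher and 11 lower at the adjusted p. Among all 11412 genes 1528 were then higher and 6182 lower, with a median of -0.74. Of the members that passed, Rps6 at 0.68 and Rpl10a at -0.87 were the farthest apart. For each 100 Rpl22 UMIs there were 49.1 and 47.0 of Rpl22l1, below the 83.01 and 107 in astroglia-like cells of the same libraries.

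In endothelial-like cells 68 members were called higher than in astroglia-like cells, against 19.1% of all genes, with a median of 1.38. Leaving aside Rpl3l, which had 2 and 1 UMIs there and missed the threshold (edgeR adjusted p = 0.0620), Rpl38, known from mouse mutants for its part in the translation of Hox messages, was highest at 2.24 (SE 0.17, edgeR adjusted p = 2.84e-15), with 4341 and 3973 CPM in the 3m endothelial-like cells. Rps20 was next at 2.04, with 2078 and 2042 CPM. Rps19bp1 at -0.29, Rpl22l1 at 0.20 and Rpl7a at 0.39 were lowest. When the members were scaled to their own sum, these last 3 were the members called lower (-1.71, -1.23 and -1.03) and 0 were called higher, with Rpl38 at 0.81. Among all 11412 genes 932 were then called higher and 6795 lower, with a median of -1.51, so the count is not read as a result about the members. The ratio of Rpl22l1 to Rpl22 was again low, with 33.9 and 27.9 UMIs per 100.

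In mural-like cells at 3m 10 of 80 members were called higher, a share near the 14.9% of all genes. They include Rpl3l, which passed the filter only through its mural UMIs and so had to differ, and it is not read as support for the count. At the adjusted p alone 66 were higher, against 18.4% of all genes, with a median of 0.69. Without a scaling factor 44 were called higher, but the median of all genes then moved from -0.11 to 0.25 and the calls over all genes turned from 1699 higher and 2138 lower to 2405 higher and 1585 lower. Rps16 had 1366 and 1317 CPM in the mural-like cells (log2 difference 1.47, SE 0.16, edgeR adjusted p = 1.19e-10), and Rpl10, which joins the large subunit in a late step of assembly, had 793 and 1010 CPM (1.36, SE 0.16, edgeR adjusted p = 6.84e-10). Rps19bp1 was the 1 member called lower, on 8 and 3 UMIs. In the postnatal libraries mural-like cells gave 10.4% and 11.4% of UMIs to the members, from 18 and 24 cells. There 0 members were called by edgeR, against 9.89% of all genes called higher, 4 were higher and 1 lower at an unadjusted p under 0.05, and the median was 0.26. The mural-like cells were shallower than the astroglia-like ones, with median UMIs of 3067 and 4311 at 3m.

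**Figure D4:**
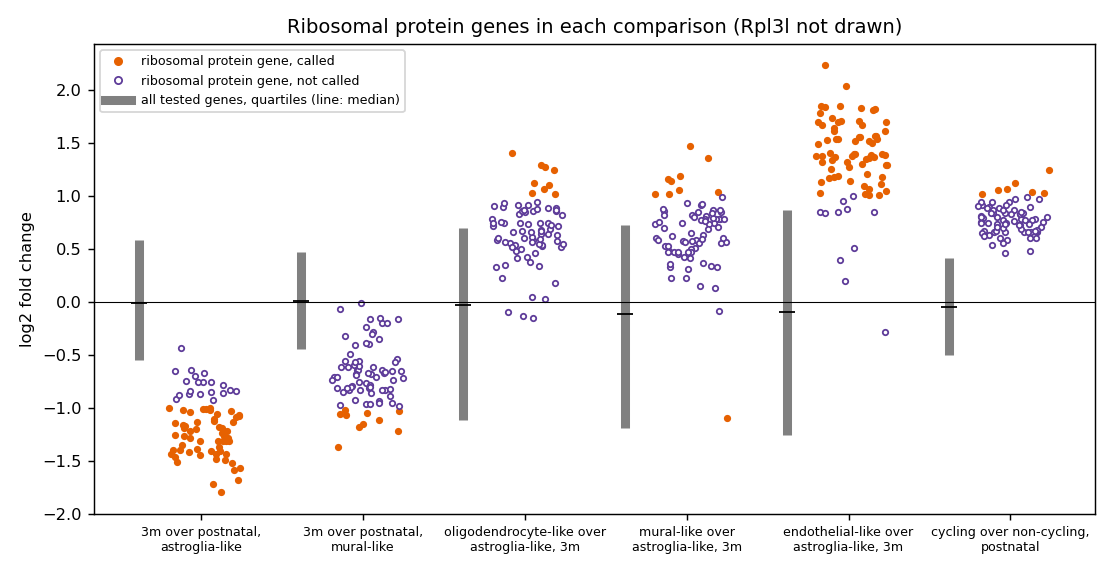
Log2 differences of the tested ribosomal protein genes (vertical axis) in each comparison, 1 point per gene, beside the median and quartiles of all genes tested. The members lie below 0 with age in astroglia-like cells and above it in cycling cells, with medians of -1.18 and 0.78. In oligodendrocyte-, endothelial- and mural-like cells at 3m the medians are 0.67, 1.38 and 0.69, with a few members below 0, such as Rps19bp1 in mural-like cells at -1.09, and Rpl3l is not drawn.

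Age could be compared in 1 more class. In mural-like cells the share at the 2 ages differed by -4.43 percentage points, and 10 of 79 tested members were called lower, against 3.12% of all genes, with a median log2 change of -0.71. Rpl23a at -1.37, Rps12 at -1.22 and Rpl32 at -1.18 were lowest, and each of these was also among the lowest in astroglia-like cells. The astroglia markers summed to 1890 and 2135 CPM in the postnatal and to 4241 and 4514 CPM in the 3m mural-like cells, and the oligodendrocyte markers to 7.81 and 21.4 CPM against 511 and 319 CPM, and their part in the change was not tested. Malat1 went from 38543 and 30719 CPM to 70573 and 58484 CPM in these cells, and their median depth was 6570 and 8018 UMIs postnatally against 3067 and 4311 at 3m. In cells of 4000 to 16000 UMIs the shares were 10.40% and 10.38% from 12 and 14 cells against 8.19% and 6.12% from 16 and 30. The difference between the age changes of mural-like and astroglia-like cells was tested as an interaction. It was above 0 for 75 of 80 members, with a median of 0.44, and for 5784 of all 11217 genes, with a median of 0.04. Of the members 1 was called, against 1.52% of all genes called in that direction. When the scaling factors were computed without the members, 0 members were called.

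The third comparison set cycling against non-cycling astroglia-like cells within the postnatal libraries. Cycling cells gave 11.3% and 17.3% of UMIs to the members, from 27 and 76 cells, which was 4.09 and 7.58 percentage points more than non-cycling cells of the same library. They were also deeper, with median UMIs of 15387 and 31062, and in cells of 4000 to 16000 UMIs the gaps were 2.19 and 3.39 points, from only 11 and 7 cycling cells. Malat1 was lower in the cycling cells, at 38932 and 18543 CPM against 72244 and 50980 CPM, and so were the astroglia markers, at 5891 and 3022 CPM against 10829 and 8797 CPM, and their part in the gap was not tested. All 79 tested members had a positive log2 difference, and 7 were called higher, a share near the 7.38% of all genes. At the adjusted p alone 59 were higher, against 11.3% of all genes, and the median difference was 0.78. Rps6 was highest at 1.25 (SE 0.22, edgeR adjusted p = 0.000492), followed by Rps2 at 1.13, Rpl4 and Rps18, both at 1.06, Rpl12 at 1.04, Rpl14 at 1.03 and Rps19 at 1.02. Rpl10 at 0.47 was lowest. These calls used the library as a block, and without it 0 members were called by edgeR, 1 passed at the adjusted p alone and 56 at an unadjusted p under 0.05. After scaling to the family sum 0 members passed at either the adjusted or the unadjusted p, and the differences ran from -0.31 to 0.47.

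The lists around the family did not move in the same order as with age. Of the 21 assembly factors 15 were called higher in cycling cells, with Nop58 at 1.97 and Nop56 at 1.78, both of the box C/D particles that modify ribosomal RNA, Gar1 at 1.53 and Fbl, fibrillarin, at 1.39. The median of that list was 1.15, above the 0.78 of the members, whereas with age it had changed less than the members. Of 15 tested regulators 3 were called higher, Mycn at 1.60, Myc at 1.31 and Eif4ebp1 at 1.14, and 1 lower, Ddit4 at -1.69, beside 813 higher and 655 lower calls among all 11013 genes. Of the other ribosomal genes 1 of 7 was called, Rpsa at 1.25, and of the translation factors 2 of 14, Npm1 at 1.31 and Pabpc1 at 1.04. Differences between these lists were not tested. At 3m only 5 and 6 astroglia-like cells were cycling, with shares of 14.1% and 11.4%, too few to sum for a test, and 3 of the 6 were copies with a shared barcode.

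Rpl3l, the form of Rpl3 used in heart and skeletal muscle, lies in mm10 at chr17:24727820-24736143 on the plus strand, and it followed another pattern. Mural-like cells at 3m held 12 and 15 of its UMIs, 57.3 and 61.3 CPM, with 95% Poisson intervals of 29.6 to 100.1 and 34.3 to 101.2 CPM. Astroglia-like cells of the same libraries held 0 and 1. Over both libraries the mural CPM was 289 times the astroglial CPM, on 27 against 1 UMI, with a counting interval from 47.7 to 11843. The UMIs were spread over 11 of 62 and 11 of 50 mural-like cells, against 0 of 315 and 1 of 303 astroglia-like cells, although the median depth of the mural-like cells was lower. Oligodendrocyte-like cells held 1 and 0 UMIs and endothelial-like cells held 2 and 1. The 24 microglia-like cells of 3m replicate 1 held 4 among 122686 UMIs in all. In the postnatal libraries mural-like cells held 8 and 3 UMIs, 62.5 and 12.9 CPM, in 5 of 18 and 3 of 24 cells, and astroglia-like cells held 0 and 0, where 3 UMIs would have been 0.853 and 0.503 CPM. Cycling endothelial-like cells of the postnatal libraries held 4 and 4 UMIs and cycling red blood-like cells 5 and 1, so the gene was not confined to mural-like cells. Of the other 2 members that did not pass the filter in astroglia-like cells, Rpl39l had 7 UMIs in astroglia-like cells of postnatal replicate 2, and Rpl10l, known from the testis, had 0 UMIs in the libraries.

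**Figure D5:**
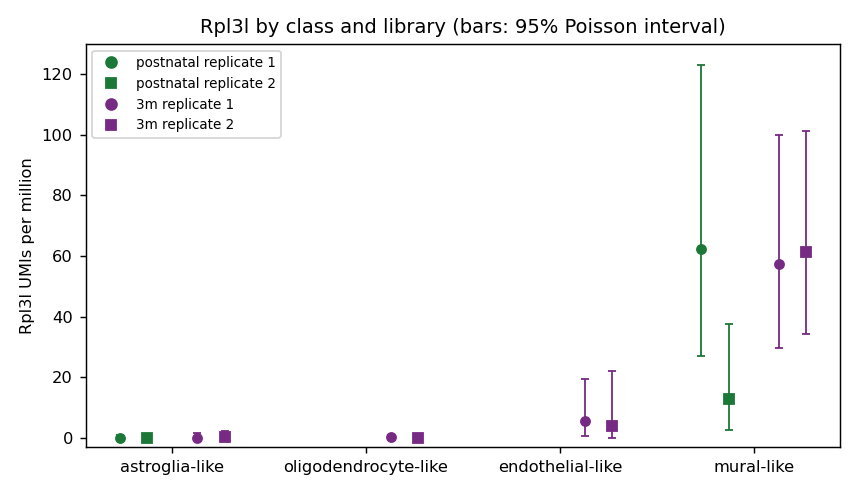
Rpl3l CPM (vertical axis) in the classes of each library, with 95% Poisson intervals that cover counting error only. Mural-like cells stand at 57.3 and 61.3 CPM at 3m and at 62.5 and 12.9 CPM postnatally.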

How the data were processed

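Per the labels and the study's methods, the authors aligned reads to mm10 with Cell Ranger and deposited 1 table of UMI counts per gene and cell, with repeat sequencing runs of a library merged. Counts were used as deposited, and no column of samples was left out of use. Barcodes with at least 500 genes and at most 10% mitochondrial UMIs were kept. A cell took the class with the highest mean log-normalised marker level if it led by 0.25 and at least 3 markers were detected, a rule set after the files were read. No doublet caller was run. UMIs were summed per library and class with at least 10 cells and tested with edgeR 4.0.16 (TMM, quasi-likelihood). DESeq2 1.42.0 was an alternative. A call needed both 0.05 after Benjamini-Hochberg adjustment over all genes and a log2 change of 1 or more. CPM are scaled to the total UMIs of the summed cells. Lists are given by counts and medians. Intervals cover counting error only, and p-values of age measure the spread between 2 pools per age. Those of classes, of cycling and of the interaction measure the scatter left within the same pools after the library term. The genes named were the extremes and the middle of the members, the most abundant members and close relatives. The members and lists were chosen with earlier results of these data known. Fits were tested on simulated data that had the same spread in every comparison, unlike the real sums, and no result here rests on that test. Coordinates and starts are of GRCm38 (mm10). Values of a few genes are not reported here.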

Additional observations from a re-analysis of the deposited data

How the results depend on the processing

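Leaving out 1 library in turn gave 13 to 70 members called lower with age in astroglia-like cells and 31 to 67 over all filtered cells, and where an arm kept 1 library its spread was assumed to be like that of the other group. Scaling by the summed members, which removes what they share, left 0 calls with age in both sums, 0 in oligodendrocyte-like cells, 0 higher and 3 lower in endothelial-like cells, 1 higher and 1 lower in mural-like cells and 0 in cycling cells. Over all 11412 genes that scaling gave 932 higher and 6795 lower calls in endothelial-like cells. In mural-like cells it gave 1093 higher and 3930 lower. At the adjusted p alone 72 members were called in oligodendrocyte-like, 66 in mural-like and 59 in cycling cells. With no scaling factor 44 were called in mural-like cells, and 74 and 68 with age in astroglia-like and in all cells. DESeq2 called 59 and 60 with age. Without the smaller copies of shared barcodes edgeR called 59 of 79 and 56 of 80 members lower, beside 1299 of 11463 and 1920 of 14281 genes. In cells of 4000 to 16000 UMIs the mean share difference from astroglia-like cells was 2.51 points for oligodendrocyte-like, 4.25 for mural-like and 2.79 for cycling cells. Scaled without the members, the interaction of age and class called 0. A replicate block on the 2 ages, whose libraries share only a number (correlation of same-numbered deviations 0.0513 in astroglia-like and 0.215 in all cells), called 57 and 54 members. With no replicate block 0 members were called in cycling cells and 1 passed at the adjusted p alone. Over 29 named members and 16 settings, 429 of 464 values kept direction and side of the threshold, 25 lost the call, 10 gained it and 0 changed sign, leaving out the scaling by the summed members, under which 40 of the 79 tested members were above 0 with age. Classes of few cells limit the endothelial, mural and cycling values.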

Other observations

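Other classes too small for a test gave single values. Oligodendrocyte precursor-like cells gave 14.0% of UMIs to the ribosomal protein genes in postnatal replicate 1 (58 cells) and 3.92% in 3m replicate 1 (45 cells). They gave 11.6% in postnatal replicate 2 (4 cells) and 3.75% in 3m replicate 2 (8 cells). Ependymal-like cells at 3m, the ciliated lining of the ventricles, gave 8.08% (13 cells) and 7.77% (8 cells).

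A set of filtered cells gave over 25% of their UMIs to these genes, and they were singled out after their values were seen. They numbered 17 and 38 in the postnatal libraries and 13 and 1 at 3m, and their summed shares were 40.8%, 51.1%, 34.5% and 34.3%. Malat1 stood at 1300, 2611, 877 and 993 CPM in them, against 48747, 36460, 85032 and 83794 CPM in the other cells of the same libraries. In postnatal replicate 1 they held 6310 CPM of Bc1, a noncoding RNA of neuronal dendrites, against 35.9 CPM in the other cells, and 1472 against 66.9 CPM of Kif1a, a motor of axonal transport. Bc1 stood at 25.4 against 0.276 CPM in postnatal replicate 2, at 2593 against 24.3 CPM in 3m replicate 1 and at 1490 against 5.78 CPM in the 1 cell of 3m replicate 2, and Kif1a at 992 against 76.7, 496 against 149 and 0 against 173 CPM, the last in a single cell of 2014 UMIs, too shallow to read a 0. The class gate left 8, 29, 4 and 0 of them unassigned and put 1, 4, 2 and 1 in the astroglia-like class, whose cells were not filtered on this share.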
